A study of Sus scrofa with 12 samples.

Results

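The regions described here were 24012 loop anchors of Meishan (MS) pig skeletal muscle, and the measurement was the RNA found on them. An anchor was a 5-kb bin of the genome at an end of an H3K27ac loop in both MS loop lists. They made up 4.93% of the 486595 bins of the pig chromosomes and covered 120 Mb. They were compared with 436079 bins that lay at no loop end in either MS list, called non-anchors here. The remaining 26504 bins were anchors in 1 of the lists and were kept as a class of their own. The choice of anchors used the loop lists alone and no RNA value.

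The study set MS, a Chinese local breed, beside Large White (LW), a commercial breed, in longissimus muscle of 2-week-old piglets with no treatment. Each breed had 2 libraries of H3K27ac BL-HiChIP, which maps DNA ends that lie together in the nucleus on chromatin with this histone mark, and 2 libraries of GRID-seq, which ligates RNA to the DNA beside it through a linker. LW libraries enter only where MS anchors were compared between the breeds. Whole muscle was used, so that fibre nuclei and those of other cells were read together, and neither the labels nor the methods tie the libraries to animals. The p-values below therefore measure only the spread between libraries. Both assays cut chromatin with AluI, and every loop had an H3K27ac peak at no fewer than 1 of its ends, so that looping and acetylation cannot be told apart here.

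H3K27ac marks active promoters and enhancers, and loops between such sites bring distal elements close to the genes they may act on. RNA on chromatin comes largely from transcription in progress and so lies mostly on its own gene, while some RNAs reach other parts of their chromosome or other chromosomes. In muscle fibres the long genes of the sarcomere, the contractile unit, are transcribed at very high rates and leave much RNA on chromatin.

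The MS GRID-seq libraries listed 519 and 649 RNAs (replicates 1 and 2, in this order throughout) with 7172517 and 9381797 RNA reads, and 437 RNAs were in both. The lists give each RNA a background-corrected value on 1-kb bins, relative to its own reads. Listed bins formed unbroken runs with a median length of 28 kb in both libraries and a 5th percentile of 22 kb. A single contact therefore spreads over several 5-kb bins, and RNA position is known to about 20 kb rather than 5 kb. Counting only the highest bin of each run gave larger ratios of anchors to non-anchors, as stated below. Of the 10 muscle fibre markers, 6 were listed as RNAs under their own names in both libraries, as were the collagen genes COL1A1 and COL1A2 of the fibroblast markers. No marker of endothelial, blood and immune, fat or heart muscle cells was listed under its own name in either MS library. Some RNAs are listed by an identifier alone, so this does not show that RNA of these markers was absent.

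RNA was found on most anchors and on a minority of non-anchors. The share of anchors with any RNA was 62.9% and 71.2%, against 20.2% and 25.8% of non-anchors, a ratio of 3.12 and 2.76. Bins that were an anchor in 1 list lay between, at 54.1% and 63.1%. Every ratio of anchors to non-anchors given here has 2 libraries as its n. An exact two-sided sign-flip permutation test cannot go below p = 0.5 with 2 libraries, so that no such ratio can pass a threshold, and the values of both libraries are given in its place. The mean ratio over the libraries was 2.94 ± 0.252 (SD, n = 2). It was 6.54 by the highest bin of each run alone, 5.53 with pairs of an RNA and a bin listed in both libraries, and 4.45 with values of at least the library median.

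The number of RNAs differed more than the presence of RNA did. Anchors carried 1.17 and 1.47 RNAs per bin and non-anchors 0.259 and 0.352, a ratio of 4.52 and 4.18. Of the anchors, 13.7% and 19.5% carried 3 or more RNAs, against 1.07% and 1.84% of non-anchors. The median anchor carried 1 RNA in both libraries. The bins with the most RNAs of all were not anchors: up to 13 and 19 RNAs were listed on a non-anchor and up to 9 and 11 on an anchor. Some loci are listed as several overlapping transcripts, and with overlapping RNAs counted once the ratio was 4.51 and 4.15.

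Each RNA was called local within 10 kb of its own gene, cis beyond that on the same chromosome, and trans on another chromosome. The value per bin was higher on anchors in all 3 classes and most of all for local RNA. Local value was 382 and 438 per anchor against 21.3 and 25.4 per non-anchor, a ratio of 17.96 and 17.3. With loop list 1 left out, so that the anchors of list 2 alone were used, the mean local ratio was 11.6 rather than 17.6. Cis value was 50.2 and 82.1 per anchor against 5.08 and 8.50 per non-anchor, a ratio of 9.87 and 9.65. Trans value was 4.14 and 4.92 per anchor against 0.661 and 0.848 per non-anchor, a ratio of 6.26 and 5.80. The libraries differed from each other by far less than the classes of bins did in each of these measures.

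The value and the number of bins gave different pictures of what lay on anchors. By value, 87.6% and 83.4% of the sum on anchors was local, 11.5% and 15.6% was cis, and 0.948% and 0.937% was trans. The value is relative to the reads of each RNA, so these are not shares of the amount of RNA. By bins, trans RNA was the commonest, on 53.8% and 59.0% of anchors, with cis RNA on 22.8% and 32.2% and local RNA on 7.88% and 10.2%. Of the anchors with any RNA, 56.1% and 47.2% carried trans RNA alone, less than the 74.0% and 70.7% of non-anchors with RNA. Multiplying each value by the reads of its RNA, which gives abundant RNAs more weight, lowered the mean ratios to 12.5 for local, 6.59 for cis and 4.72 for trans value.

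RNA coverage stayed high around the anchors. The share of bins with any RNA was nearly level from 10 kb before to 10 kb after an anchor. Single contacts spread over about 20 kb, and the part of this in the level stretch was not tested. The share was 53.4% and 62.2% at 20 kb before the anchor and 56.3% and 64.6% at 20 kb after. It was 48.5% and 56.8% at 50 kb before and 48.6% and 56.8% at 50 kb after. At 200 kb it was still 39.7% and 47.2% before and 40.2% and 47.8% after, above the level of all non-anchors. These bins include other anchors. With anchors of either list left out of them, the share was 57.0% and 66.0% at 5 kb before. It was 40.1% and 48.8% at 50 kb before and 33.3% and 41.1% at 200 kb before, still above the level of all non-anchors. Against non-anchors within 100 kb of an anchor, which lie in the same neighbourhoods, anchors had 2.48 and 2.33 times as many RNAs, 3.97 and 3.92 times the cis value and 3.65 and 3.47 times the trans value. These near non-anchors in turn carried 3.44 and 3.25 times as many RNAs as non-anchors farther away.

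**Figure D1:**
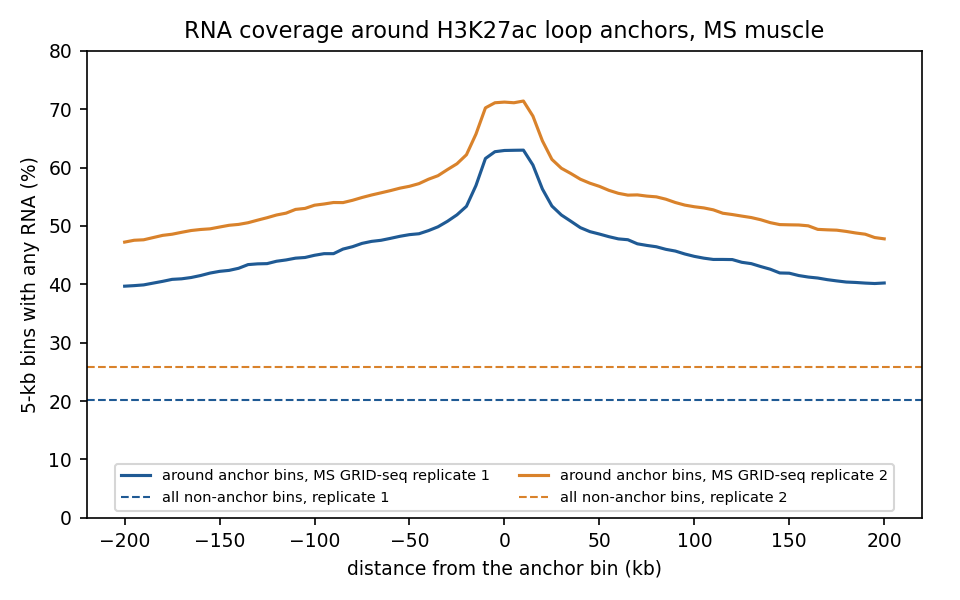
Share of 5-kb bins with any RNA (%) against the distance from an anchor bin (kb) for the 24012 MS anchors, 1 line per MS GRID-seq library with other anchors included at each distance, and dashed lines give the share over all non-anchors. Both lines are nearly level within 10 kb of the anchor, with 62.9% and 71.2% at the anchor itself, and stay above the non-anchor level out to 200 kb.

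Anchors lay in genes more often than non-anchors did, and this was followed up by comparing bins of 1 kind. A RefSeq gene overlapped 79.7% of anchors and 56.7% of non-anchors, and a gene end lay in 28.2% against 7.51%. Among bins with a gene end, anchors had 3.22 and 3.01 times as many RNAs, and among bins inside a gene 3.78 and 3.51 times. Among bins with no gene the ratio was 5.67 and 5.25, larger than in either kind of genic bin. The 4868 anchors without a gene carried fewer RNAs than the 6764 anchors at a gene end, at 1.02 and 1.31 per bin against 1.30 and 1.61. Among non-anchors these numbers were 0.180 and 0.250 against 0.405 and 0.535. The anchors without a gene had a higher cis value than those at a gene end, at 72.4 and 110 per bin against 50.3 and 81.2. Their local value was lower, at 131 and 142 against 652 and 710, and so was their trans value, at 2.95 and 3.62 against 5.36 and 6.54.

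The number of RNAs on an anchor moved with its number of loops. Only loops called in both MS lists were counted here, 11627 in all. Anchors with 1 loop carried 1.10 and 1.38 RNAs per bin, those with 2 to 3 loops 1.33 and 1.65, and those with 4 to 9 loops 1.72 and 2.07. The 33 anchors with 10 or more loops carried 2.58 and 3.00 RNAs, and 90.9% of them had RNA in each library. The 9195 anchors whose lists shared the bin but no loop carried 1.13 and 1.43 RNAs, close to anchors with 1 loop. Gene ends moved with loop number as well, from 27.9% of anchors with 1 loop to 39.4% of those with 4 to 9 loops, and the part of this in the RNA number was not tested.

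**Figure D2:**
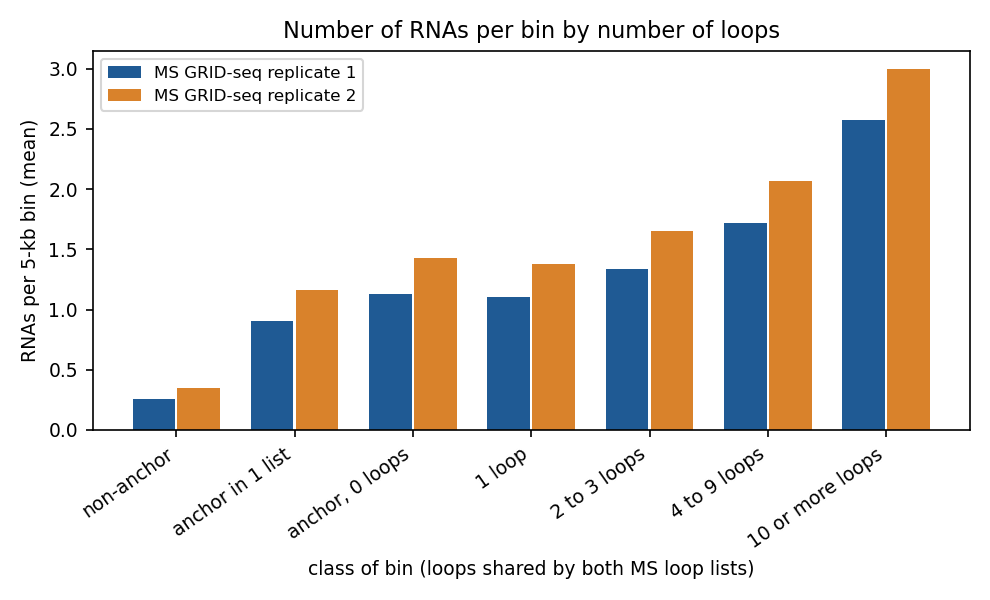
Mean number of RNAs per 5-kb bin by class of bin, with anchors split by the number of loops found in both MS loop lists, and bars give 1 value per MS GRID-seq library and carry no error bar. Non-anchors have 0.259 and 0.352 RNAs per bin, and anchors with 10 or more loops 2.58 and 3.00.

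The excess of RNA on anchors was larger at a greater distance from the gene that made the RNA. For each RNA the anchors it touched in a class of distance were set against the number expected from the share of anchors among all bins in that class on its chromosome. On its own gene this ratio of observed to expected was 1.00 in both libraries. Nearly every bin there carried the RNA, 99.1% and 99.5% of anchors and 93.9% and 96.4% of non-anchors, so that little excess was possible. Within 10 kb of the gene it was 1.00 and 1.00, and from 10 to 20 kb 1.03 and 1.03.

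Farther out, anchors were touched more often than their number gave. The ratio was 1.18 and 1.16 from 20 to 50 kb, 1.32 and 1.29 from 50 to 100 kb, and 1.44 and 1.40 from 100 to 200 kb. It was 1.90 and 1.83 from 200 to 500 kb, and 2.61 and 2.85 from 1000 to 2000 kb. From 2000 to 10000 kb it reached 4.47 and 4.61, and beyond 10000 kb it was 4.51 and 4.44. Up to 10000 kb the ratio was larger in each class than in the one before it in both libraries. The expected number counts anchors and non-anchors together. The plain share of anchors touched over that of non-anchors was 1.16 and 1.14 from 10 to 20 kb. It was 4.54 and 4.91 from 2000 to 10000 kb, and 5.46 and 5.44 beyond 10000 kb. Over all cis contacts beyond 10 kb the ratio of observed to expected was 2.44 and 2.45. By the highest bin of each run alone its mean was 5.59.

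The chance that an RNA was listed on an anchor fell with distance even as the ratio grew. From 100 to 200 kb from its gene an RNA was listed on 18.8% and 22.0% of anchors and on 11.5% and 14.8% of non-anchors. Beyond 10000 kb these shares were 0.413% and 0.475% of anchors, and 0.0756% and 0.0873% of non-anchors. The number of RNAs behind a class was 423 and 558 at 10 to 20 kb and 66 and 104 beyond 10000 kb, so that the far classes rest on fewer RNAs. On other chromosomes, with the expected number taken for each chromosome, the ratio was 3.13 and 2.78 over 64 and 80 RNAs.

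**Figure D3:**
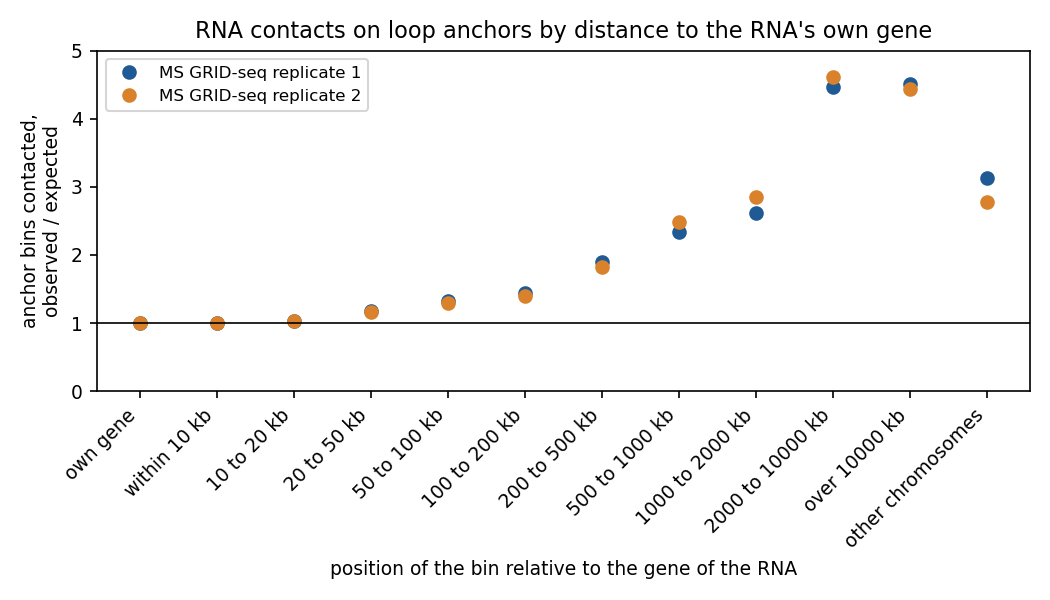
Anchor bins contacted by RNAs as observed over expected, by the distance of the bin from the gene of the RNA, with 1 point per MS GRID-seq library and a line at 1. Points lie at 1.00 on the own gene and within 10 kb and reach 4.47 and 4.61 from 2000 to 10000 kb.

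Loops joined the genes of many RNAs to other anchors, and RNA was listed on these partners more often than on other anchors at the same distance. Partners were anchors joined to a bin of the RNA's own gene by a loop of both lists, beyond 10 kb and up to 2 Mb away. RNAs were listed on 45.3% and 51.6% of their partners (673 and 795 partners of 264 and 314 RNAs), on 38.5% and 44.2% of other anchors in the same class of distance, and on 25.2% and 28.9% of non-anchors there. The ratio of partners to other anchors was 1.18 and 1.17, and to non-anchors 1.80 and 1.79. The partner was listed more often than its other anchors for 67 and 90 RNAs, less often for 35 and 35, and equally often for 162 and 189.

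The excess of partners over other anchors was smaller at matched distance. With other anchors limited to those within 10 kb of the partner's own distance, which was possible for 551 and 660 partners, the ratio was 1.12 and 1.09. The partners differ between the comparisons as well as the distances, and the part of each was not tested. This comparison was added after the data were seen. Among partners 200 to 500 kb away, RNAs were listed on 41.9% and 49.3% against 29.9% and 37.2% of other anchors, a ratio of 1.40 and 1.33, and at 20 to 50 kb the ratio was 1.04 and 1.02. By the highest bin of each run the ratio over all distances was 2.39 and 1.72, so that this result depends on how a run is read.

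Anchors carried more RNA than non-anchors on each of the 19 chromosomes with any listed RNA. The share with any RNA had a median ratio over chromosomes of 2.93 and 2.59, with the lowest on chromosome 12, at 2.00 and 1.82. Chromosome 12 had the most RNA on non-anchors, and the ratio of the number of RNAs was also lowest there, at 3.04 and 2.88. The local and cis values were higher on anchors for all 18 autosomes, and the cis ratio ranged from 6.06 and 5.87 on chromosome 8 to 19.8 and 17.4 on chromosome 11. No RNA was listed from the X chromosome, so that its 560 anchors could carry trans RNA only, and no bin of Y carried RNA.

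**Figure D4:**
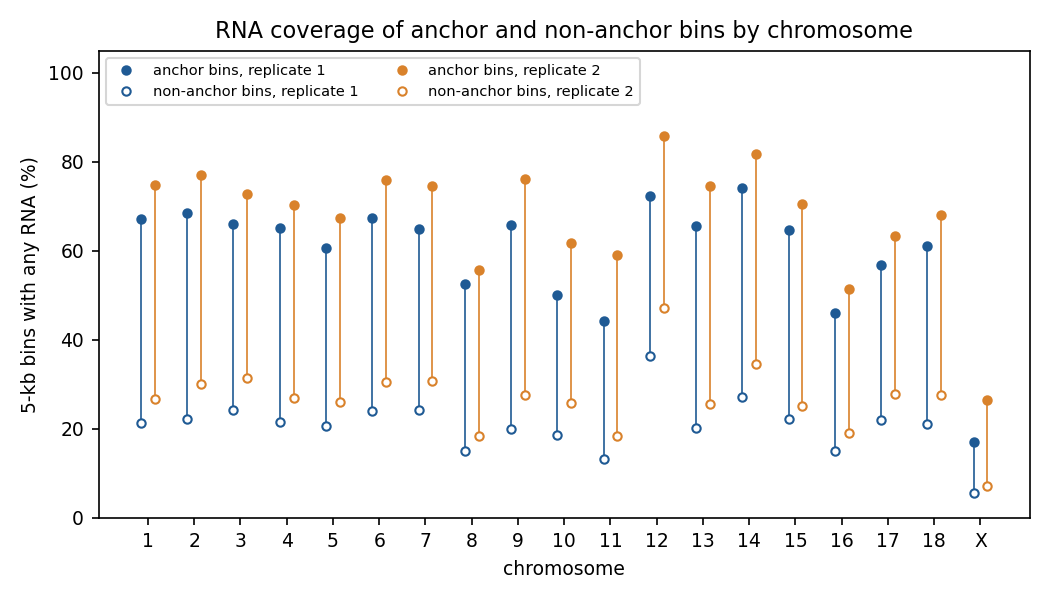
Share of 5-kb bins with any RNA (%) on each chromosome, with filled points for anchors, open points for non-anchors and 1 colour per MS GRID-seq library. Filled points lie above open points on all 19 chromosomes, and the ratio is smallest on chromosome 12, at 2.00 and 1.82.

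The excess on anchors was seen for most RNAs with many bins beyond their own gene. Most of the 437 RNAs in both libraries had too few such bins and were not tested. An RNA was called when it touched at least 1.5 times the expected number of anchors in both libraries, or that number divided by 1.5 or less. Of 141 RNAs with at least 20 cis bins in both libraries, 97 were called as having more anchors (68.8% of those tested) and 0 as having fewer (0.0%). This rule is a fold in both libraries and not a statistical test. The median ratio was 2.02 and 2.13, and 134 of the 141 RNAs were above 1 in both libraries. In trans, 19 of 20 RNAs with at least 20 bins were called as having more (95.0%) and 0 as having fewer (0.0%), with a median of 5.60 and 5.16. By the highest bin of each run fewer RNAs reached 20 bins. Of these, 22 of 22 tested were called as having more in cis and 10 of 10 in trans.

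**Figure D5:**
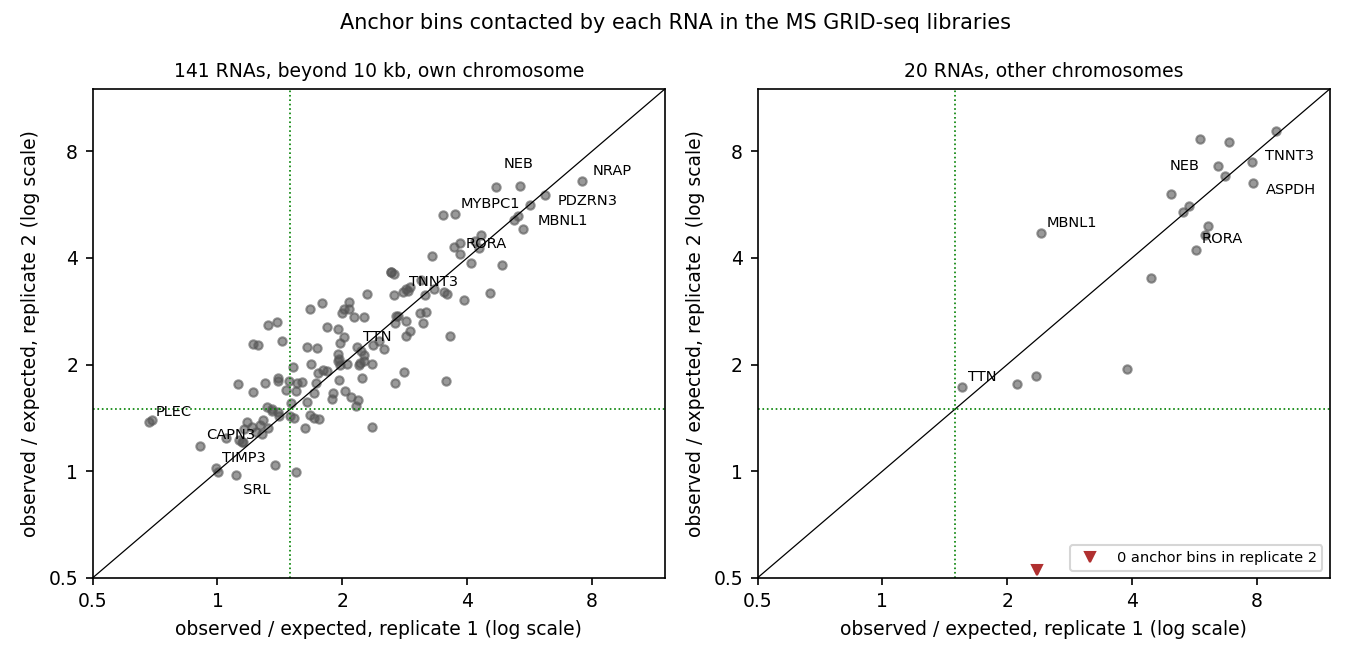
Anchor bins contacted by single RNAs as observed over expected in MS GRID-seq replicate 1 (horizontal, log scale) and replicate 2 (vertical, log scale), in cis beyond 10 kb for 141 RNAs (left) and in trans for 20 RNAs (right), and dotted lines mark the fold of 1.5 and the triangle an RNA at 0 in replicate 2. Most points lie above both dotted lines and near the diagonal, with NRAP highest in cis at 7.59 and 6.58.

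A few RNAs made up most contacts on anchors. Among the 5 with the most trans anchors were ENSSSCG00000048037, TTN, ENSSSCG00000048856 and ENSSSCG00000044834. The 5 leading RNAs of each library held 68.7% and 59.0% of all RNA contacts on anchors and 90.7% and 85.1% of those in trans, with an unannotated transcript in place of ENSSSCG00000044834 in replicate 2. ENSSSCG00000048037 alone was on 26.9% and 21.6% of all anchors. TTN RNA, from the gene of the giant sarcomere spring titin, was on 16.8% and 15.6%.

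These leading RNAs were not equally drawn to anchors. In trans, ENSSSCG00000048856, made from chr2:6752140-6757157, touched 1925 and 3432 anchors, 5.31 and 5.38 times the number expected. TTN had 39678 and 32736 trans bins, but its 3598 and 3389 anchors were 1.55 and 1.73 times the number expected, lowest of the 20 RNAs in replicate 1 and above MYBPC1 alone in replicate 2. ENSSSCG00000048037, from chr3:53631433-53653180, differed most between the libraries among the leading RNAs, at 3.89 and 1.94. ENSSSCG00000044834, at 2.12 and 1.77, had the most reads of the RNAs in both libraries. Among anchors and non-anchors it had no listed bin within 10 kb of its own gene. Without the 5 RNAs with the most trans bins, which are the same 5, the mean ratio of anchors to non-anchors was 5.94 for the share with any RNA and 7.22 for the number of RNAs.

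Other RNAs reached the anchors more selectively. Among the highest trans ratios were those of ENSSSCG00000029441, at 8.92 and 9.11, from chr12:55190429-55278539, which overlaps the fast myosin heavy chain genes MYH1, MYH2 and MYH4. TNNT3, encoding fast troponin T, had 7.81 and 7.45 on 35 and 58 trans anchors. The interval listed as TNNT3, chr2:989931-1317600, also overlaps other genes, among them TNNI2, LSP1 and CTSD. Its contacts, here and in the gene lists, can therefore not be credited to TNNT3 alone. ENSSSCG00000038561 lies inside TTN on the same strand and had 5.85 and 8.66, well above TTN itself. ASPDH had 7.84 and 6.50. The lowest on average was MYBPC1, encoding slow myosin-binding protein C, of whose trans bins 4 of 24 were anchors in replicate 1 and 0 of 30 in replicate 2. ENSSSCG00000039473, which overlaps USP32, had 2.34 and 1.86.

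In cis beyond 10 kb, TTN touched 440 and 354 anchors. ENSSSCG00000048037 touched 428 and 336. MBNL1, a splicing regulator of muscle transcripts, touched 270 and 453 anchors on chromosome 13, at 5.67 and 5.66 times the expected number. RORA, a nuclear receptor, touched 258 and 400 anchors on chromosome 1, at 3.84 and 4.09. For MBNL1 and RORA the count of anchors differed between the libraries far more than the ratio did.

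The highest cis ratios stood well above the median RNA. NRAP, encoding an actin-binding protein of growing myofibrils, had 7.59 and 6.58 on 55 and 90 anchors. PDZRN3, a ubiquitin ligase, had 6.16 and 6.03, and NEB, encoding the thin filament ruler nebulin, had 5.37 and 6.37. MBNL1 was also among the 5 highest. The lowest ratios were near 1 or differed in side between libraries: ENSSSCG00000043851 had 1.00 and 1.00, TIMP3 0.99 and 1.02, SRL 1.11 and 0.98, CAPN3 0.91 and 1.18, and PLEC, encoding the linker protein plectin, 0.68 and 1.37. These 5 RNAs touched no more than 16 anchors each.

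The highest local values on anchors came from short genes with few reads. NDUFA4L2, a mitochondrial protein gene, had a summed local value of 82808 and 89992 over 4 anchors with 813 and 927 reads. The interval listed under this name also overlaps NXPH4, SHMT2 and STAC3, so its value cannot be credited to NDUFA4L2 alone. OTUD1, a deubiquitinase, had 56845 and 75102 over 2 anchors, and HSPB6, a small heat shock protein of muscle, had 65719 and 49967 over 4. RBM38 had 60804 and 52509, and the transcription factor KLF2 had 69241 and 42670. The median RNA of both libraries had 3403 and 4110 reads, and none of these 5 had more than 1352. The value is relative to the reads of each RNA, so it does not rank these RNAs by amount.

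Genes of the contractile apparatus lay at anchors and their RNAs reached other anchors. Of 26 annotated sarcomere genes, 21 had an anchor at a gene end, 25 had one in the gene, and 24 had an anchor in the gene that carried RNA in both libraries. Over all 19550 protein-coding genes, 31.7% had an anchor at an end and 39.3% had one in the gene. RNA on such an anchor in both libraries was not counted over all coding genes. Among sarcomere RNAs 11 were tested in cis and 11 were called as having more anchors, against 68.8% over all RNAs tested, with a median of 2.81 and 3.19 beside 2.02 and 2.13 over all RNAs tested. TTN held the most anchors of the list. ACTN2, encoding the Z-disc actin crosslinker alpha-actinin, touched 170 and 276 cis anchors at 4.18 and 4.48 times the expected number, while TPM1, encoding a tropomyosin, had 1.55 and 1.68.

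Z-disc and membrane genes also lay at anchors. All 18 had an anchor in the gene and 15 had one at an end, beside 39.3% and 31.7% of all coding genes. Of 7 RNAs tested in cis, 6 were called as having more, beside 68.8% over all RNAs tested, with a median of 2.61 and 3.32, and CAPN3 was not called. MYO18B, an unconventional myosin gene, held the most anchors of this list, with 249 and 388 in cis at 2.92 and 3.32. PDLIM5, encoding a Z-disc adaptor, had 5.31 and 5.24 on 21 and 20 anchors.

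Calcium-handling genes had an anchor at an end in 12 of 16 cases, beside 31.7% of all coding genes. The 3 RNAs tested in cis were all called as having more, a number too small to set apart from the 68.8% over all RNAs tested. JPH1, encoding a junctophilin that joins the plasma membrane to the calcium store, had 4.32 and 4.66 and held the most anchors, CACNA1S, the voltage sensor, had 2.92 and 2.49, and the calcium pump gene ATP2A2 had 1.73 and 1.78. Among regulators 16 of 22 genes had an anchor at an end, beside the same 31.7%. Of their RNAs, 6 of 7 tested were called, with a median of 2.30 and 2.22. Both are near the values over all RNAs tested, where 68.8% were called and the median was 2.02 and 2.13. TEAD1, a transcription factor of the Hippo pathway, held the most, with 45 and 76 cis anchors at 2.30 and 3.17. LRRFIP1 was not called, at 1.22 and 1.67.

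Glycolysis and glycogen genes lay at anchors, but their RNAs had few bins beyond 10 kb. All 20 had an anchor in the gene and 17 had one at an end, beside 39.3% and 31.7% of all coding genes. Of the 20, 10 were listed as RNAs in both libraries. None of them had 20 cis bins in both libraries, so 0 were tested in cis. The creatine kinase gene CKM, with 18157 and 21886 reads, touched 2 and 2 local anchors and 2 and 4 in cis. PFKM, encoding muscle phosphofructokinase, held the most anchors of the list over both libraries together, with 5 and 5 local and 6 and 1 in cis. In replicate 2 the glycogen synthase gene GYS1 held more, with 4 local and 4 in cis.

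Markers of other cell types lay at anchors in some cases. Of the markers used to check the tissue, 10 of 10 muscle fibre genes had an anchor at an end with RNA on an anchor in the gene in both libraries, against 0 of 4 adipocyte, 1 of 4 blood and immune and 1 of 3 annotated heart muscle genes with an anchor at an end. Fibroblast markers had one in 3 of 5 cases and endothelial markers in 3 of 4, both above the 31.7% of all coding genes. In the longer lists, 4 of 6 fibroblast, 3 of 5 endothelial, 1 of 4 blood and immune, 1 of 5 adipocyte and 0 of 3 nerve genes had an anchor at an end. Of the nuclear noncoding RNAs, 1 of 7 was annotated under its symbol, and none was listed under its symbol. That gene, MEG3, lies within the listed RNA ENSSSCG00000051274 (chr7:121656237-121691190), which had 6177 and 7095 reads, 11 and 11 local bins with 1 and 1 on an anchor, and 1 and 1 cis bin with 0 and 0 on an anchor. These lists are short, and no difference between them was tested. RNA on anchors was not counted over all coding genes.

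The 10 anchors with the most RNAs lay at muscle genes and at others. The first was chr6:47340001-47345000 (Sscrofa11.1, as all positions here), inside RYR1, the calcium release channel gene, with 9 and 11 RNAs. Among its RNAs of both libraries were ACTN4 and ENSSSCG00000048037. RNA of RYR1 itself was listed as several unannotated transcripts, numbered anew in each library, which make up part of this count. The bin before it, which holds the end of RYR1, had 9 and 9. In both libraries most of the value on these bins was local.

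At chr14:87665001-87670000 inside LDB3, a Z-disc gene, 9 and 10 RNAs were listed. Of these 6 were shared by the libraries, among them LDB3 itself, its neighbour OPN4, MYO18B from the same chromosome, and TTN and ENSSSCG00000044834 from others. Anchors at SLC25A4, the main ADP/ATP carrier of muscle mitochondria (chr15:46190001-46195000 and the next bin), carried 8 and 10 and then 8 and 9 RNAs. Among their 6 shared RNAs were SLC25A4, PDLIM3, NEB and TTN, all from chromosome 15, so that TTN was there in cis. Both bins had 2 loops of both lists.

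The remaining anchors of the 10 lay at other kinds of genes. The pair from chr12:1130001-1140000 at P4HB, MCRIP1 and PPP1R27 carried 9 and 8 RNAs each, with all 3 genes among the local RNAs and ENSSSCG00000048856 in trans. The anchor at chr2:6810001-6815000, beside LOC100513133, carried 8 and 8 RNAs, with TNNT3 and ENSSSCG00000048856 from its own chromosome. At BCL6, a transcriptional repressor gene, chr13:125390001-125395000 carried 7 and 11 RNAs. Neighbouring bins shared their RNAs, as runs of over 20 kb imply, so that the 10 bins stand for 6 loci, and 5 of the 10 had 0 loops of both lists.

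The anchors with the most loops carried few to many RNAs. The anchor with 17 loops, chr14:56450001-56455000, overlapped no gene and had 4 and 5 RNAs, among them ACTN2 and IRF2BP2 from its own chromosome, with a cis value of 914 and 1023 and no local value. That with 16 loops, chr1:4245001-4250000, also overlapped no gene and had 4 and 4 RNAs, with QKI, an RNA-binding protein gene, in cis and TTN in trans. At chr6:152830001-152835000 inside FGGY, with 15 loops, 0 and 4 RNAs were listed. Anchors with 14 loops lay at TRIB1 (chr4:14295001-14300000, 4 and 2 RNAs) and in BCL6 (chr13:125395001-125400000, 7 and 11 RNAs). The anchor in FGGY shows that many loops did not go with RNA in both libraries at each anchor.

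Both libraries listed RNA on more of the anchors than of the non-anchors, as each library did. RNA was listed in both on 51.5% of anchors, in 1 library on 31.1% and in neither on 17.4%, and the same shares of non-anchors were 10.6%, 24.7% and 64.7%. The product of the shares of both libraries, which unrelated listing would give, was 44.8% for anchors and 5.20% for non-anchors. Of the pairs of an RNA and an anchor, 42.1% of those in replicate 1 and 33.6% of those in replicate 2 were in both, against 28.5% and 21.0% for non-anchors. By these shares a single pair was more often in 1 library than in both, also on anchors. Unannotated transcripts were numbered anew in each library, so their pairs could not be matched, which lowers these shares. The 4176 anchors without RNA in either library differed modestly from those with RNA in both in gene overlap, at 74.8% against 81.8%, and in gene ends, at 24.3% against 30.3%. Of them 8.33% were on X, against 0.259% of those with RNA in both.

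MS anchors were then compared between breeds, with every ratio formed within a library against bins that were an anchor in none of the 4 lists. Most MS anchors, 74.2%, were anchors in both LW lists as well, and 1642 (6.84%) were in neither. On these MS-only anchors the number of RNAs was 3.34 and 3.27 times that of non-anchors in the MS GRID-seq libraries and 1.71 and 2.10 times in the LW libraries. The breeds did not overlap, with a log2 difference of 0.79 between their means (exact permutation test over 2 against 2 libraries, p = 0.33, the smallest it can give). The cis value ratio was 5.53 and 5.98 in MS and 4.63 and 3.77 in LW.

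The same order was seen on anchors of the other breed. On 5173 LW-only anchors the ratio of the number of RNAs was 3.05 and 2.96 in the MS libraries and 1.60 and 2.10 in the LW libraries, and on 17816 anchors of all 4 lists it was 5.23 and 4.78 against 2.42 and 3.12. A higher ratio in the MS libraries was thus not particular to MS-only anchors. Non-anchors carried RNA more often in the LW libraries, at 26.3% and 28.7% of bins against 18.9% and 24.3% in MS, and the part of this in the ratios was not tested. Within each library, MS-only anchors had 1.10 and 1.11 times the RNA number of LW-only anchors in MS and 1.07 and 1.00 times in LW (exact permutation test, p = 0.33). For the cis value this was 1.08 and 1.10 in MS and 1.31 and 1.05 in LW, where the breeds overlapped.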

How the data were processed

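The data were loop lists of H3K27ac BL-HiChIP and RNA-chromatin lists of GRID-seq from MS muscle, with 2 libraries each, and those of LW for 1 comparison. Groups came from the sample titles. For BL-HiChIP the authors trimmed linkers with ChIA-PET2, mapped with BWA-MEM to Sscrofa11.1, and called loops for each library with FitHiChIP, which paired every 5-kb bin holding a peak with any other bin up to 2 Mb away. The deposited value per loop was read as an adjusted p-value (FDR), as each list ends just under 0.01. For GRID-seq the authors split reads at the linker, mapped them with Bowtie2, kept RNAs enriched on chromatin and removed non-specific background. The deposited whole number per RNA was read as its count of RNA reads, and the deposited signal per RNA and 1-kb bin starts at 0.02. The lists carry no column names, so these readings rest on the values and the methods. Submitters' processing notes name Trim Galore 0.4.5, Bowtie2 2.2.5, SAMtools 1.9 and MACS2 2.1.2. The labels give DSG and formaldehyde crosslinking for GRID-seq, and the methods formaldehyde alone. H3K27ac peaks were not analysed here, and the RNA-side GRID-seq samples were not analysed on their own. The number of value columns without a sample was 0.

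Bins were pooled to 5 kb, with the value of an RNA summed and pairs listed more than once (1125 and 1321) summed. Expected anchors of an RNA were its bins in each distance class, or on each other chromosome, times the share of anchors among anchors and non-anchors there. Genes came from RefSeq (Sscrofa11.1), which gave no strand, so both gene ends were used. The library was the unit, tests were exact permutation tests over libraries, and bins were not treated as replicates. The named RNAs were the 5 with the most trans anchors, the 5 with the most cis anchors, the 5 with the highest local value on anchors and the 5 highest and lowest ratios in cis and in trans. Some RNAs that this rule names are not reported here. The named anchors were the 10 with the most RNAs and the 5 with the most loops. List members were named by their anchors, and others as examples after their values were seen. The members and lists were chosen with earlier results of these data known. Computations were tested on simulated data and used Python 3.11.15, NumPy 2.4.6, pandas 2.3.3 and matplotlib 3.10.9. Alternatives covered the loop lists and FDR (0.001), non-anchors within 100 kb, gene overlap, pairs in both libraries, high values, leading RNAs, sex chromosomes and each library left out. Run summits, weighting by reads, merged RNAs and the exact distance of partners were added after the data were seen.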

Additional observations from a re-analysis of the deposited data

How the results depend on the processing

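The ratios of anchors to non-anchors stayed above 1 under each of the 133 alternatives tried for the 8 ratios, while 102 of the values over all results moved by more than the spread between the libraries, which is small with 2 of them. Contacts spread over about 20 kb, neighbouring bins are not independent, and no statement holds for a single 5-kb bin. No RNA with fewer than 432 and 455 reads was listed, so that contacts of rarer RNAs could not be seen here. Whether depth or the authors' choice of RNAs enriched on chromatin set this limit was not tested. Unannotated transcripts (59 and 78 of the RNAs) were numbered anew in each library and could not be matched between libraries. With an anchor in either loop list, the mean ratios were 3.85 for the number of RNAs, 13.3 for local value, 8.04 for cis value, 4.99 for trans value, 2.09 for cis contacts over expected, 2.44 for trans contacts over expected and 1.21 for loop partners over other anchors. With loops of an FDR of at most 0.001, the mean ratios were 4.69 for the number of RNAs, 20.7 for local value, 11.2 for cis value, 6.67 for trans value, 2.61 for cis contacts over expected and 3.23 for trans contacts over expected. With an anchor allowed to lie in the next bin of the other list, the mean ratios were 16.8 for local value, 9.57 for cis value, 2.31 for cis contacts over expected and 1.16 for loop partners over other anchors. Against non-anchors within 100 kb of an anchor, the mean ratios were 1.77 for the share with any RNA, 2.41 for the number of RNAs, 6.81 for local value, 3.95 for cis value, 3.56 for trans value, 1.82 for cis contacts over expected and 1.88 for trans contacts over expected. In bins that overlap a gene, the mean ratios were 2.49 for the share with any RNA, 3.65 for the number of RNAs, 13.0 for local value, 7.64 for cis value, 5.12 for trans value, 2.31 for cis contacts over expected, 2.58 for trans contacts over expected and 1.22 for loop partners over other anchors. In bins that overlap no gene, the mean ratios were 3.70 for the share with any RNA, 5.46 for the number of RNAs, 24.0 for local value, 16.9 for cis value, 6.63 for trans value, 2.10 for cis contacts over expected, 3.53 for trans contacts over expected and 1.09 for loop partners over other anchors. Without the 5 RNAs with the most trans bins, the mean ratios were 5.94 for the share with any RNA, 7.22 for the number of RNAs, 9.49 for trans value, 2.35 for cis contacts over expected and 5.44 for trans contacts over expected. With pairs of an RNA and a bin listed in both libraries, the mean ratios were 5.53 for the share with any RNA, 6.68 for the number of RNAs, 19.2 for local value, 9.95 for cis value, 9.56 for trans value, 2.25 for cis contacts over expected, 4.07 for trans contacts over expected and 1.25 for loop partners over other anchors. With values of at least the library median, the mean ratios were 4.45 for the share with any RNA, 6.25 for the number of RNAs, 7.59 for trans value, 2.45 for cis contacts over expected and 4.09 for trans contacts over expected. With the anchors of the same-numbered loop list, the mean ratios were 4.02 for the number of RNAs, 14.8 for local value, 8.60 for cis value, 5.35 for trans value, 2.23 for cis contacts over expected, 2.63 for trans contacts over expected and 1.20 for loop partners over other anchors. Without X and Y, the mean ratios were 16.7 for local value and 9.26 for cis value. The following were added after the data were seen. By run summits, the mean ratios were 6.54 for the share with any RNA, 7.86 for the number of RNAs, 21.8 for local value, 20.5 for cis value, 8.36 for trans value, 5.59 for cis contacts over expected, 4.76 for trans contacts over expected and 2.06 for loop partners over other anchors. With values times reads, the mean ratios were 12.5 for local value, 6.59 for cis value and 4.72 for trans value. With other anchors within 10 kb of the same distance, the mean ratio was 1.11 for loop partners over other anchors. With 1 MS library left out, the ratios ranged from 2.65 to 3.12 for the share with any RNA, 3.70 to 4.52 for the number of RNAs, 11.6 (without loop list 1) to 17.96 for local value, 7.12 to 9.87 for cis value, 4.91 to 6.26 for trans value, 2.12 to 2.45 for cis contacts over expected, 2.49 to 3.13 for trans contacts over expected and 1.17 to 1.19 for loop partners over other anchors. Calls of RNAs with more cis anchors numbered 61 by a fold of 2 (141 tested), 48 with at least 100 bins (58 tested) and 22 by run summits (22 tested). Calls in trans numbered 10 with at least 100 bins (10 tested) and 10 by run summits (10 tested). By 1 GRID-seq library alone, 104 to 110 of 141 RNAs tested were called as having more in cis. Of 20 RNAs tested in trans, 19 to 20 were called as having more and 0 to 1 as having fewer, the 1 being MYBPC1 without MS GRID-seq replicate 1.

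As replicate numbers are shared by the groups, the breeds were also compared within same-numbered libraries. With this replicate block the log2 difference of MS minus LW was 0.80 for the number of RNAs and 0.46 for cis value on MS-only anchors, and 0.71 and 0.57 on LW-only anchors, and no direction changed. The labels give no shared source for a number, and with 2 libraries a group the pairing could not be checked. With 1 library left out, the log2 difference between breeds ranged from 0.65 to 0.95 for the number of RNAs and from 0.32 to 0.61 for cis value on MS-only anchors, and from 0.52 to 0.91 and 0.53 to 0.62 on LW-only anchors.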
